A study of Homo sapiens with 9 samples.

Results

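The 39 genes described here are interferon-stimulated genes, antiviral and signalling genes whose transcription is known to rise when a cell senses interferon. They were listed by symbol and found through the Ensembl identifier of each gene, and 39 of 39 were present among the 60675 genes of the count files. RNA-seq had been carried out on LNCaP:C4-2, a prostate cancer line derived from LNCaP cells that grows without testicular androgen, with 3 libraries for each of 3 groups. All groups carried a tetracycline-inducible pLKO short hairpin RNA delivered by lentivirus, were selected with puromycin, were kept in charcoal-stripped, phenol red-free medium and received 1 μg/ml doxycycline for 6 days, although the titles of the libraries name a vehicle. The control group carried the non-targeting shScramble hairpin, and the other 2 groups carried shMETTL3 guide 2 or shMETTL3 guide 1, directed at different sites of METTL3. METTL3 is the catalytic subunit of the complex that places N6-methyladenosine on RNA.

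The cells were puromycin-selected stable clones, and the sources used here state neither how many clones each hairpin had nor whether the libraries of a group came from separate cultures. The p-values therefore measure the spread between these libraries, which may be technical, and an effect of a hairpin and a difference between the selected cells cannot be told apart. The shScramble group is the background of every comparison below unless another is named.

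Type I interferons bind the IFNAR1 and IFNAR2 receptor, which activates the kinases JAK1 and TYK2. Downstream of these kinases, STAT2 and IRF9 take part in the complex that binds the interferon-stimulated response element in front of the target genes. The products sense foreign or unedited double-stranded RNA, degrade RNA, stop translation, modify proteins with ISG15 or block viruses at membranes, and epithelial cells hold a basal level of many of them without any added interferon.

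The labels of the groups were first checked against the targeted gene. Changes are given as log2 fold changes ± the standard error of the fit, with n = 3 libraries per group and p-values from the quasi-likelihood test of edgeR, adjusted by the Benjamini-Hochberg method over all genes tested. METTL3 stood at 29.8, 31.7 and 33 CPM (counts relative to library size, after edgeR's TMM scaling) in the shScramble libraries, 16.6, 16.6 and 15.8 CPM with guide 2 and 29.4, 30.1 and 29.6 CPM in the libraries labelled guide 1. The guide 2 libraries were all below the 6 others (log2 fold change −0.95 ± 0.069, edgeR adjusted p = 2.97e-12), and in the libraries labelled guide 1 it did not pass the test (log2 fold change −0.08 ± 0.063, edgeR adjusted p = 0.251). The guide 1 libraries are therefore named by their label. Total counts per library lay between 21899501 and 30897639, so that 3 counts, taken as the limit of detection, correspond to 0.0971 to 0.137 CPM, a limit that covers counting error only. Fewer genes had a count with guide 2 (24884 to 26505) than with shScramble (28459 to 29586) or in the libraries labelled guide 1 (29193 to 29628). The luminal prostate markers KRT8, KRT18, HOXB13, FOLH1, TMPRSS2, STEAP2 and SLC45A3 summed to 2619 to 2643 CPM with shScramble, 2975 to 3105 CPM with guide 2 and 1341 to 1380 CPM in the libraries labelled guide 1. With guide 2, HOXB13 was the one of these 7 with an adjusted p-value below 0.05 and a change of 1.5-fold or more (log2 fold change 0.78 ± 0.048, edgeR adjusted p = 1.06e-13). KRT8, KRT18 and SLC45A3 had log2 fold changes of −0.14, −0.12 and −0.12. By the adjusted p-value alone, 3 of the 7 were higher and 1 was lower, KRT8 (edgeR adjusted p = 0.00883). In the libraries labelled guide 1 all 7 values were negative, from −1.15 to −0.36. The basal markers KRT5, KRT14 and TP63 were at 3 counts or fewer in every library. The 4 leukocyte markers PTPRC, CD3E, CD14 and LYZ summed to at most 0.526 CPM, and the 3 endothelial markers PECAM1, VWF and CDH5 to at most 3.49 CPM. VWF, the endothelial marker that could be tested, rose with guide 2 (log2 fold change 0.99 ± 0.23, edgeR adjusted p = 0.000587) and fell in the libraries labelled guide 1 (log2 fold change −0.60 ± 0.26, edgeR adjusted p = 0.0469). The 4 fibroblast markers COL1A1, COL1A2, COL3A1 and DCN summed to 41.8 to 45.55 CPM with shScramble, 33.3 to 36.6 CPM with guide 2 and 18.9 to 24.85 CPM in the libraries labelled guide 1, where COL1A1, the one of them that could be tested, fell (log2 fold change −1.04 ± 0.078, edgeR adjusted p = 8.58e-12). The part of these markers in the results below was not tested. In bulk RNA, fewer cells that express a gene and less RNA of it per cell cannot be told apart.

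Levels of the 39 genes in control cells spanned several orders of magnitude. Per kilobase of exon, the mean level in the shScramble libraries was 10 RPKM (CPM per kilobase) or more for 9 genes, between 1 and 10 RPKM for 9 and below 1 RPKM for 21, with a median of 0.63 RPKM. BST2, which encodes the virus-tethering membrane protein tetherin, was highest at 119.9 RPKM, followed by ADAR at 45.5 RPKM, IFITM3 at 45.2 RPKM, ISG15 at 38.7 RPKM and IRF7 at 29.8 RPKM. With guide 2 the same classes held 9, 9 and 21 genes, and in the libraries labelled guide 1 they held 6, 12 and 21. Of the interferon genes themselves, 20 of 21 were at 3 counts or fewer in every library, and the remaining gene, IFNB1, reached at most 4 counts.

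**Figure D1:**
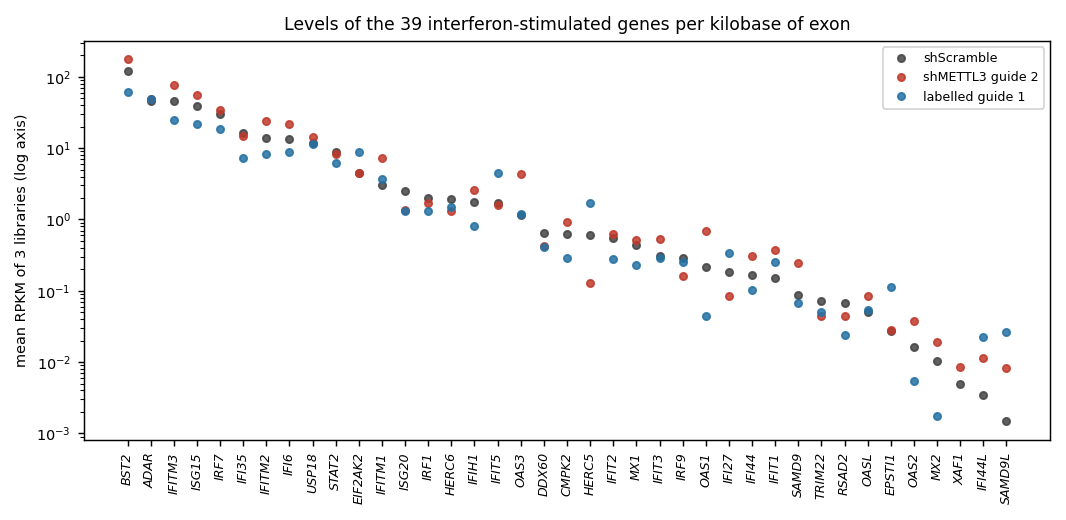
Mean RPKM of the 39 interferon-stimulated genes (horizontal axis, ordered by the shScramble mean) on a log vertical axis, with 1 point per group of 3 libraries. The points run from 119.9 RPKM (BST2) down to below 0.01 RPKM, and XAF1 has no guide 1 point because it had no counts there.

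A filter on low counts kept 32 of the 39 genes, within 19278 genes tested in all. Of the 7 others, XAF1 was at 3 counts or fewer in every library. RSAD2, encoding the antiviral enzyme viperin, had 6, 12 and 9 counts with shScramble, 6, 6 and 3 with guide 2 and 6, 2 and 2 in the libraries labelled guide 1. IFI44L exceeded 3 counts only in the libraries labelled guide 1, with 8, 5 and 7 counts against 1 in every shScramble library and 3, 2 and 3 with guide 2. SAMD9L had 5, 5 and 6 counts there, against at most 1 with shScramble and at most 3 with guide 2. OASL, OAS2 and MX2 had between 0 and 10 counts per library. EPSTI1 passed the filter through its counts in the libraries labelled guide 1, so its rise there was a condition of its being tested.

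A call required an adjusted p-value below 0.05 together with a change of 1.5-fold or more. With guide 2, 9 of the 32 tested genes rose (28.1%) and 5 fell (15.6%), whereas over all genes tested 8.85% rose and 20.4% fell. Under scaling by library size alone these counts were 7 and 6, and with DESeq2 they were 11 and 2. The shares over all genes given here are those of the main fit, so the counts of these alternatives have no share beside them. Whether the shift under an alternative is particular to the 32 genes therefore cannot be read from these counts. The 9 that rose were IFIT1, IFIT3, IFITM1, IFITM2, IFITM3, OAS1, OAS3, IFI6 and SAMD9, and the 5 that fell were HERC5, ISG20, IFI27, IRF9 and DDX60. All 3 guide 2 libraries lay above all 3 shScramble libraries for 16 genes (50%) and below them for 6 (18.8%), against 32.5% and 34.1% of all genes tested. The median log2 fold change of the 32 genes was 0.21, beside a median of −0.04 over all genes tested. Scaling by library size alone moved the latter median to −0.19, and values given here are relative to the TMM scale.

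In the libraries labelled guide 1, 6 of the 32 genes rose (18.8%) and 15 fell (46.9%), beside 21.2% and 16.5% of all genes tested. Those that rose were IFIT1, IFIT5, IFI27, HERC5, EIF2AK2 and EPSTI1. The groups did not overlap for 7 genes that were higher (21.9%) and 17 that were lower (53.1%), against 36.5% and 34.5% of all genes tested. The median log2 fold change was −0.56, with −0.02 over all genes. Both comparisons use the same shScramble libraries, so their values are given side by side only.

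Set side by side, OAS1, IFITM2, IFITM3 and IFI6 rose with guide 2 and fell in the libraries labelled guide 1, and HERC5 and IFI27 fell with guide 2 and rose in the libraries labelled guide 1. ISG20 and DDX60 fell in both and IFIT1 rose in both. IFIT3, IFITM1, OAS3 and SAMD9 rose with guide 2, where IRF9 fell, without passing the test in the other comparison. Conversely, IFIT2, IFI35, IFIH1, ISG15, MX1, IRF1, IRF7, BST2 and CMPK2 fell and IFIT5, EIF2AK2 and EPSTI1 rose in the libraries labelled guide 1 without being called with guide 2. IFI44, STAT2, USP18, HERC6, ADAR and TRIM22 were called in neither.

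**Figure D2:**
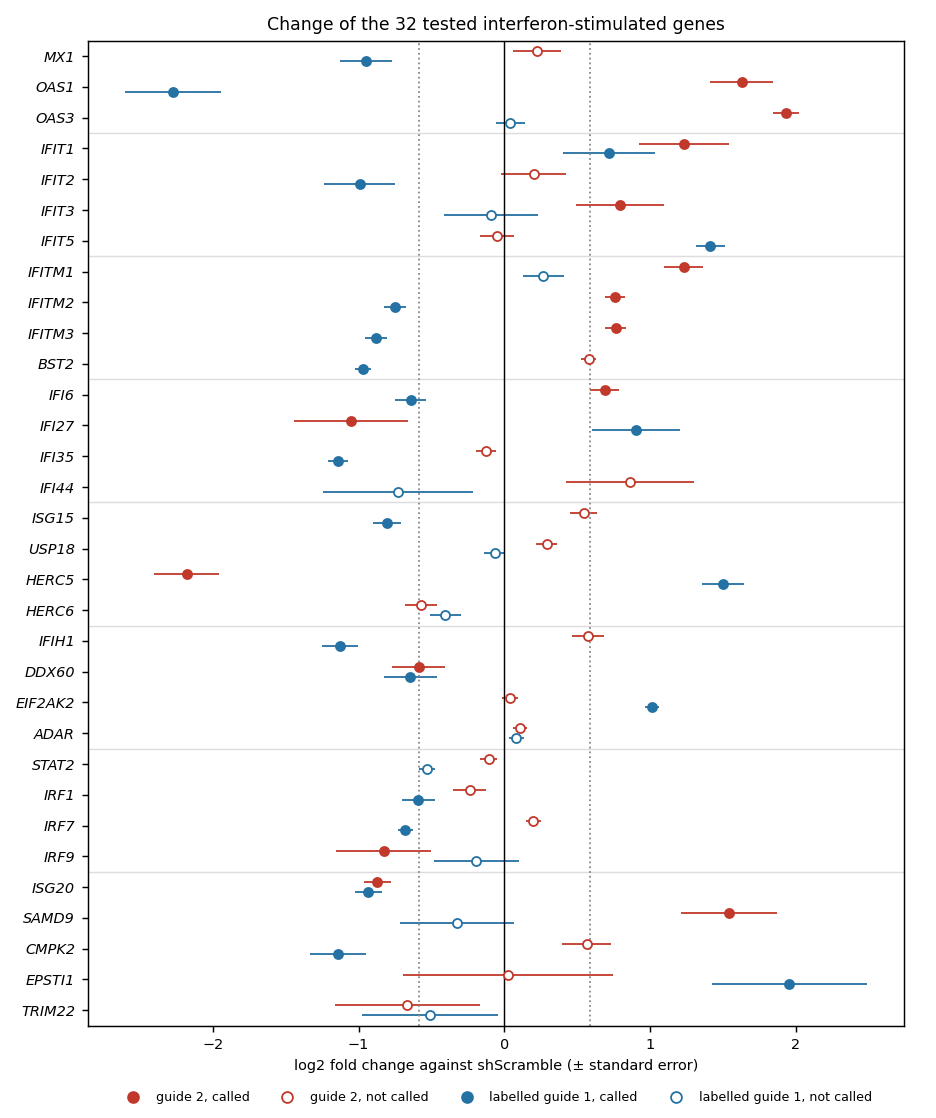
Log2 fold change against shScramble (horizontal axis) with its standard error for the 32 tested genes, by role, with filled points for called genes and dotted lines at a fold change of 1.5. With guide 2 (red) 9 genes are filled on the right and 5 on the left, and in the libraries labelled guide 1 (blue) 6 and 15.

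The guide 2 libraries were also compared directly with the libraries labelled guide 1, which does not rest on the shScramble means. Here 17 of the 32 genes were higher with guide 2 (53.1%) and 5 were lower (15.6%), beside 19.1% and 28.2% of all genes tested. The 2 groups did not overlap for 19 genes that were higher with guide 2 (59.4%) and 5 that were lower (15.6%), against 35.4% and 40.4% of all genes tested. Gene by gene, the difference is given below as the guide 2 minus guide 1 value.

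Promoters of 6 genes are shown because each holds the core of the interferon-stimulated response element, yet the genes differed in direction between the groups. The windows are those of RefSeq on GRCh38.p14, 300 bases from 250 before to 50 after the annotated start, written 5′ to 3′ on the strand of the gene. Capitals mark the core, read as GAAA, any 2 bases and GAAA again, or as TTTC, any 2 bases and TTTC on the opposite strand. OAS3 rose with guide 2, IFITM3 and IFI6 rose with guide 2 and fell in the libraries labelled guide 1, HERC5 did the opposite, IFIT5 rose in the libraries labelled guide 1 and DDX60 fell in both.

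OAS3 (chr12:112938224-112938523, plus strand): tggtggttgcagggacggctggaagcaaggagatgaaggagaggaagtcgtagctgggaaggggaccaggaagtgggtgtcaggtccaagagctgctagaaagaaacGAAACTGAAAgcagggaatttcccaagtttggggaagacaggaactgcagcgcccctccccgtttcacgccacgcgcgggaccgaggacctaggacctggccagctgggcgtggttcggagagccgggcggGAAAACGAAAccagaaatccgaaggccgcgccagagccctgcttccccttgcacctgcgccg
IFITM3 (chr11:320811-321110, minus strand): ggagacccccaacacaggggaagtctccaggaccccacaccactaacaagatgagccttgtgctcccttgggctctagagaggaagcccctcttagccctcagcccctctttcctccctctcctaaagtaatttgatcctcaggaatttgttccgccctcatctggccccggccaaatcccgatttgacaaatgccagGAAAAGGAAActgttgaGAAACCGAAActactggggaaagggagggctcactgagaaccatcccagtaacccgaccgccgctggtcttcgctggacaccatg
IFI6 (chr1:27672143-27672442, minus strand): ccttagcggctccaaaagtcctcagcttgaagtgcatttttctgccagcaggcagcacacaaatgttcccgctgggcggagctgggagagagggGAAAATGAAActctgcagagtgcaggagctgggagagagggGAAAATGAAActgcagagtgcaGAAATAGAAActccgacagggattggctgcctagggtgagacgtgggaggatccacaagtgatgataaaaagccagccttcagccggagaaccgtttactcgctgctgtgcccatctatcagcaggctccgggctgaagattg
HERC5 (chr4:88456869-88457168, plus strand): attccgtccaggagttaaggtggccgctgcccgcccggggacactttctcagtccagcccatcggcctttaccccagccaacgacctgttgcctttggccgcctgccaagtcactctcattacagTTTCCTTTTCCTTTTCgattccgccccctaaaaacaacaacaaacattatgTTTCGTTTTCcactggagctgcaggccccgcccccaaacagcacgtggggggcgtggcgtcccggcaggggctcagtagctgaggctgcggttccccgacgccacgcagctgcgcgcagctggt
IFIT5 (chr10:89414318-89414617, plus strand): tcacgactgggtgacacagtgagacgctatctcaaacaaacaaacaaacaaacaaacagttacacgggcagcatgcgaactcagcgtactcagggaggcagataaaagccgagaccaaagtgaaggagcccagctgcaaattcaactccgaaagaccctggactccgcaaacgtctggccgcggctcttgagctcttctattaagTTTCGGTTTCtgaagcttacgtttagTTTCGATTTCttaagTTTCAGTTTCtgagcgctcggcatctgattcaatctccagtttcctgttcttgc
DDX60 (chr4:168318703-168319002, minus strand): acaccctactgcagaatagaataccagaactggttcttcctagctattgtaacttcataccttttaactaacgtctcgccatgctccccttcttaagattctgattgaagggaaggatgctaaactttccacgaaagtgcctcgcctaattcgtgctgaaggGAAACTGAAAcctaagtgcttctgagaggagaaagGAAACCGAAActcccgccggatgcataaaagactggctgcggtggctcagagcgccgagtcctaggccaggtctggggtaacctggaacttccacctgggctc

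The first core base lies 143 and 12 bases before the start in OAS3, 52 and 35 in IFITM3, 156, 115 and 93 in IFI6, and 88 and 53 in DDX60. On the opposite strand it lies 125, 119 and 74 bases before the start in HERC5, where the first 2 copies overlap, and 45, 19 and 4 bases before it in IFIT5. Of the 39 genes, 31 had a window, and 20 of these (64.5%) held the core on either strand, against 996 of all 27305 promoter windows (3.65%). The gamma-activated site TTCNNNGAA, which reads the same on both strands and can share bases with the core, was present in 9 (29%), against 7.88% of all windows. No window was found for IFIT2, IFITM2, MX2, OAS2, OASL, IRF7, USP18 and TRIM22. Of the 19 tested genes with the core, 7 rose and 4 fell with guide 2, while 6 rose and 8 fell in the libraries labelled guide 1. Over all genes tested, 8.85% rose and 20.4% fell with guide 2, and 21.2% rose and 16.5% fell in the libraries labelled guide 1. Of the 8 tested genes without it, 1 rose and 1 fell with guide 2, and 0 rose and 4 fell in the libraries labelled guide 1. A match to these letters is a description of the window and does not show a bound site. Nor does a missing match show that a response element is absent. The OAS1 window, counted as without the core, holds gaaacgaaac, which these letters cannot match.

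The oligoadenylate synthetases make, on binding double-stranded RNA, the messenger that activates RNase L, and MX1 is a GTPase that blocks the replication of several viruses. OAS1 (chr12:112906777-112933222, plus strand) had 0.971, 1.23 and 1.05 CPM with shScramble, 3.34, 3.39 and 3.35 CPM with guide 2 and 0.246, 0.216 and 0.201 CPM in the libraries labelled guide 1. The groups did not overlap, with guide 2 highest and guide 1 lowest. OAS1 rose 3.09-fold with guide 2 (log2 fold change 1.63 ± 0.22, edgeR adjusted p = 2.55e-07) and fell 4.84-fold in the libraries labelled guide 1 (log2 fold change −2.27 ± 0.33, edgeR adjusted p = 6.64e-07), where it was down to 7, 6 and 6 counts. Its difference between the guide groups, log2 fold change 3.90 ± 0.28, edgeR adjusted p = 7.05e-13, was the largest of any of the 32 genes.

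OAS3 (chr12:112938352-112973249, plus strand), the next gene along the chromosome, had 10.4, 9.29 and 8.68 CPM with shScramble, 34.2, 36.8 and 37.7 CPM with guide 2 and 8.32, 10.3 and 10.7 CPM in the libraries labelled guide 1. All guide 2 libraries stood well above the other 6, which overlapped each other. OAS3 rose 3.81-fold with guide 2 (log2 fold change 1.93 ± 0.089, edgeR adjusted p = 2.94e-16) and did not pass the test in the libraries labelled guide 1 (log2 fold change 0.04 ± 0.099, edgeR adjusted p = 0.737). OAS2, the third gene of this 104.9 kb cluster, was not tested, with 0, 4 and 4 counts, then 4, 9 and 4 counts, then 1, 0 and 2 counts. MX1 had 4.11, 3.3 and 4.07 CPM, 4.03, 5.14 and 4.17 CPM and 1.61, 2.3 and 2.01 CPM in the same order of groups, and the libraries labelled guide 1 were lower than all others. It fell there (log2 fold change −0.95 ± 0.18, edgeR adjusted p = 3.64e-05) and did not pass the test with guide 2 (log2 fold change 0.23 ± 0.16, edgeR adjusted p = 0.237).

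The IFIT genes encode proteins that bind foreign RNA by its end and restrain its translation. The 4 genes lie within 119.0 kb of chromosome 10 (chr10:89301955-89421001), and they did not move together. IFIT1 had 0.776, 0.816 and 0.526 CPM with shScramble, 0.997, 1.91 and 2.18 CPM with guide 2 and 0.913, 1.48 and 1.17 CPM in the libraries labelled guide 1. Both guide groups lay above shScramble but overlapped each other, and the first guide 2 library was below the other 2 of its group. IFIT1 rose with guide 2 (log2 fold change 1.23 ± 0.31, edgeR adjusted p = 0.00108). Its rise in the libraries labelled guide 1 (log2 fold change 0.72 ± 0.31, edgeR adjusted p = 0.045) was lost without shScramble library 1 (0.78), 2 (0.82) or 3 (0.56), without guide 1 library 2 (0.53) or 3 (0.73), with DESeq2 (0.75, adjusted p = 0.104) and without the filter on low counts (0.72, edgeR adjusted p = 0.0518).

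IFIT3 had 0.971, 0.722 and 0.745 CPM, 1.17, 1.71 and 1.36 CPM and 0.456, 0.828 and 1 CPM in the shScramble, guide 2 and guide 1 groups. It rose with guide 2 (log2 fold change 0.80 ± 0.30, edgeR adjusted p = 0.0241), a call that was lost without shScramble library 2 (0.71), shScramble library 3 (0.75) or guide 2 library 2 (0.63), with DESeq2 (0.82, adjusted p = 0.0638) and with scaling by library size alone (0.65, edgeR adjusted p = 0.0647). IFIT2 had 1.97, 2.26 and 1.45 CPM, 2.47, 2.15 and 1.99 CPM and 1.16, 0.792 and 0.937 CPM. The libraries labelled guide 1 were below all others and the remaining 6 overlapped. IFIT2 fell in the libraries labelled guide 1 (log2 fold change −0.99 ± 0.24, edgeR adjusted p = 0.000735) and did not pass the test with guide 2 (log2 fold change 0.20 ± 0.22, edgeR adjusted p = 0.443).

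IFIT5, which binds uncapped RNA, was the highest of the family per kilobase, at a mean of 1.68 RPKM with shScramble. It had 6.37, 6.12 and 7.71 CPM with shScramble, 5.76, 6.62 and 6.93 CPM with guide 2 and 17.5, 17.4 and 18.5 CPM in the libraries labelled guide 1. The latter were above all other libraries, and the shScramble and guide 2 libraries overlapped. IFIT5 rose 2.66-fold in the libraries labelled guide 1 (log2 fold change 1.41 ± 0.10, edgeR adjusted p = 7.32e-13), against −0.05 with guide 2 (edgeR adjusted p = 0.709). Between the guide groups IFIT5 and IFIT2 differed in opposite directions (log2 fold change −1.47 ± 0.10, edgeR adjusted p = 4.27e-13 for IFIT5 and log2 fold change 1.19 ± 0.24, edgeR adjusted p = 8.44e-05 for IFIT2).

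The IFITM proteins sit in cellular membranes and hinder the fusion of virus with the cell. IFITM3 (chr11:319669-327537, minus strand) had 64.2, 63 and 55.5 CPM with shScramble, 103, 95.2 and 113 CPM with guide 2 and 29.7, 33.5 and 36.1 CPM in the libraries labelled guide 1, and the 3 groups did not overlap. It rose 1.7-fold with guide 2 (log2 fold change 0.76 ± 0.071, edgeR adjusted p = 2.54e-08) and fell 1.84-fold in the libraries labelled guide 1 (log2 fold change −0.88 ± 0.076, edgeR adjusted p = 3.97e-09). IFITM2 had 21.7, 22 and 21.6 CPM, 37.2, 34.4 and 39 CPM and 11.9, 13.8 and 13.2 CPM. It stood in the same order, with log2 fold change 0.76 ± 0.07, edgeR adjusted p = 3.99e-10 for guide 2 and log2 fold change −0.75 ± 0.076, edgeR adjusted p = 1.18e-09 for the libraries labelled guide 1.

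IFITM1 had 2.94, 3.49 and 3.59 CPM with shScramble, 8.11, 7.26 and 8.07 CPM with guide 2 and 3.86, 4.28 and 3.88 CPM in the libraries labelled guide 1. Here guide 2 was again highest, but the libraries labelled guide 1 lay just above shScramble rather than below it. IFITM1 rose 2.34-fold with guide 2 (log2 fold change 1.23 ± 0.13, edgeR adjusted p = 8.91e-09) and did not pass the test in the other comparison (log2 fold change 0.27 ± 0.14, edgeR adjusted p = 0.0971). These 3 genes lie within 19.9 kb (chr11:307631-327537). In the annotation of the files, 32.5% of the exon bases of IFITM1 are shared with IFITM2 on the same strand, and 22.7% of those of IFITM2 with IFITM1. A strand setting cannot separate these. Of the exon bases of IFITM3, 21.3% are shared with an antisense gene. The strand and multi-mapping settings of the counting were not stated, so the counts of these 3 genes are uncertain to that extent.

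BST2 had 127, 139.6 and 136 CPM with shScramble, 201, 197 and 203 CPM with guide 2 and 72.8, 61.7 and 70.8 CPM in the libraries labelled guide 1. The groups were fully separated in the order guide 2, shScramble, guide 1. BST2 fell 1.96-fold in the libraries labelled guide 1 (log2 fold change −0.97 ± 0.054, edgeR adjusted p = 2.94e-15). With guide 2 it passed the adjusted p-value but was just under the required fold change (log2 fold change 0.58 ± 0.052, edgeR adjusted p = 2.15e-10). The same held for IFIH1, CMPK2 and ISG15 with guide 2, and in the other direction for HERC6 (log2 fold change −0.57 ± 0.11, edgeR adjusted p = 6.48e-05). The adjusted p-value alone would give 15 genes raised and 6 lowered. The shares of all genes tested given above belong to the rule with the fold change, so these counts have no share beside them.

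**Figure D3:**
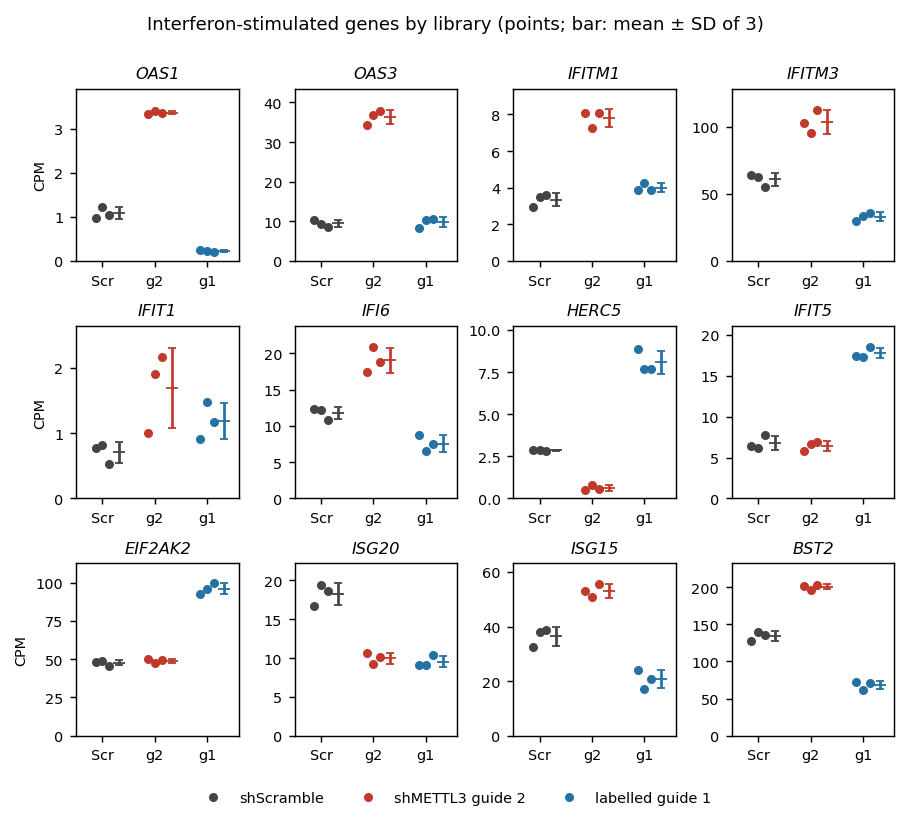
CPM of 12 interferon-stimulated genes in each of the 9 libraries (points), with the mean and SD of 3 libraries beside them, for shScramble (Scr), shMETTL3 guide 2 (g2) and the libraries labelled guide 1 (g1), each gene on its own axis from 0. OAS1, IFITM3, IFI6, ISG15 and BST2 are ordered guide 2, shScramble, guide 1, HERC5 has the reverse order, and ISG20 is lower in both guide groups.

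Among the IFI genes, IFI6 and IFI27 encode small hydrophobic membrane proteins. IFI6 had 12.3, 12.2 and 10.9 CPM with shScramble, 17.4, 20.9 and 18.8 CPM with guide 2 and 8.74, 6.48 and 7.46 CPM in the libraries labelled guide 1, without overlap between the groups. It rose with guide 2 (log2 fold change 0.69 ± 0.099, edgeR adjusted p = 9.23e-07) and fell in the libraries labelled guide 1 (log2 fold change −0.64 ± 0.11, edgeR adjusted p = 5.86e-06). The rise was under the required fold change with scaling by library size alone (0.54), as was the fall without guide 1 library 2 (−0.55).

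IFI27 had 0.518, 0.785 and 0.964 CPM, 0.52, 0.319 and 0.227 CPM and 1.58, 1.33 and 1.27 CPM. Here the order was reversed, with the libraries labelled guide 1 above all others, while the first guide 2 library reached the lowest shScramble library. It fell with guide 2 (log2 fold change −1.05 ± 0.39, edgeR adjusted p = 0.0222) and rose in the libraries labelled guide 1 (log2 fold change 0.90 ± 0.30, edgeR adjusted p = 0.0101). The fall was lost without shScramble library 2 (−1.004), shScramble library 3 (−0.87), guide 2 library 2 (−0.97) or guide 2 library 3 (−0.82) and with DESeq2 (−1.05, adjusted p = 0.0554), and the rise without shScramble library 1 (0.68). The difference between the guide groups was log2 fold change −1.96 ± 0.36, edgeR adjusted p = 1.91e-05.

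IFI35, whose product partners the STAT-interacting protein NMI, had 31.1, 33 and 32.4 CPM, 30.5, 27.5 and 30.5 CPM and 15, 13.9 and 14.9 CPM. It fell 2.2-fold in the libraries labelled guide 1 (log2 fold change −1.14 ± 0.07, edgeR adjusted p = 3.07e-14) and did not pass the test with guide 2 (log2 fold change −0.13 ± 0.067, edgeR adjusted p = 0.101). IFI44 stayed between 0.144 and 0.824 CPM and was called in neither comparison with shScramble, though it was higher with guide 2 than in the libraries labelled guide 1 (log2 fold change 1.59 ± 0.48, edgeR adjusted p = 0.00407). It had 16, 8 and 6 counts with shScramble, 19, 18 and 8 with guide 2 and 6, 4 and 8 in the libraries labelled guide 1. It passed the filter on low counts through shScramble library 1 and guide 2 libraries 1 and 2, so its being higher with guide 2 was partly a condition of its being tested.

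ISG15 is a ubiquitin-like protein that is attached to other proteins, HERC5 is the ligase that attaches it and USP18 removes it. ISG15 had 32.4, 38.2 and 38.7 CPM with shScramble, 52.9, 50.7 and 55.4 CPM with guide 2 and 24.1, 17.2 and 21 CPM in the libraries labelled guide 1. The 3 groups did not overlap. ISG15 fell 1.75-fold in the libraries labelled guide 1 (log2 fold change −0.81 ± 0.098, edgeR adjusted p = 1.99e-06), and with guide 2 its log2 fold change was 0.54 ± 0.093 (edgeR adjusted p = 0.000102), under the required fold change.

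HERC5 (chr4:88457117-88506163, plus strand) had 2.85, 2.89 and 2.8 CPM with shScramble, 0.52, 0.797 and 0.544 CPM with guide 2 and 8.88, 7.67 and 7.66 CPM in the libraries labelled guide 1. Its groups were ordered opposite to those of ISG15, again without overlap. HERC5 fell 4.53-fold with guide 2 (log2 fold change −2.18 ± 0.22, edgeR adjusted p = 2.43e-09) and rose 2.83-fold in the libraries labelled guide 1 (standard error 0.14 on the log2 scale, edgeR adjusted p = 2.97e-10). The guide 2 minus guide 1 difference, log2 fold change −3.68 ± 0.19, edgeR adjusted p = 5.27e-16, was the most negative of the 32 genes. HERC6, its neighbour within the 127.4 kb interval chr4:88378739-88506163, was called in neither comparison, at 7.46 to 7.98 CPM with guide 2 and 7.86 to 9.43 CPM in the libraries labelled guide 1 against 10.2 to 12.9 CPM with shScramble. USP18 was called in neither comparison, and lay between 23.4 and 31.9 CPM over the 9 libraries.

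Double-stranded RNA is sensed by IFIH1, also known as MDA5, and by EIF2AK2, also known as PKR, which stops translation, while ADAR edits adenosine in such RNA and DDX60 is a helicase of the sensing pathway. IFIH1 had 7.02, 8.48 and 8.46 CPM with shScramble, 11.1, 11.6 and 12.9 CPM with guide 2 and 3.41, 3.56 and 3.95 CPM in the libraries labelled guide 1. The groups were separated in the order guide 2, shScramble, guide 1. It fell 2.19-fold in the libraries labelled guide 1 (log2 fold change −1.13 ± 0.13, edgeR adjusted p = 6.28e-09), and with guide 2 it was just under the required fold change (log2 fold change 0.58 ± 0.11, edgeR adjusted p = 5.84e-05).

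EIF2AK2 had 48.3, 48.6 and 45.7 CPM with shScramble, 49.9, 47.3 and 49.5 CPM with guide 2 and 92.7, 95.9 and 99.5 CPM in the libraries labelled guide 1. The last were 2.02-fold above shScramble, and the first 2 groups overlapped. It rose in the libraries labelled guide 1 (log2 fold change 1.01 ± 0.05, edgeR adjusted p = 2.42e-16), while the guide 2 value was log2 fold change 0.04 ± 0.052, edgeR adjusted p = 0.547, and −0.11 with scaling by library size alone. ADAR, at 369 to 429 CPM over the 9 libraries, was called in neither comparison.

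DDX60 had 5.14, 4.24 and 3.59 CPM, 2.56, 2.75 and 3.4 CPM and 2.11, 3.35 and 2.91 CPM in the shScramble, guide 2 and guide 1 groups. Every shScramble library was above every guide library. It fell with guide 2 (log2 fold change −0.59 ± 0.18, edgeR adjusted p = 0.00741) and in the libraries labelled guide 1 (log2 fold change −0.64 ± 0.18, edgeR adjusted p = 0.00249), each close to the required fold change. The first call was lost without shScramble library 1 (−0.44), guide 2 library 1 (−0.51) or guide 2 library 2 (−0.55), and with DESeq2 (−0.56), DESeq2 size factors (−0.58) or no filter on low counts (−0.57). The second was lost without shScramble library 1 (−0.50) or guide 1 library 1 (−0.48).

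Of the transcription factors, STAT2 and IRF9 form the complex that binds the response element, IRF7 drives the interferon genes themselves and IRF1 acts downstream of interferon gamma. IRF7 had 82.4, 77.1 and 75.6 CPM with shScramble, 88.2, 86.7 and 95.1 CPM with guide 2 and 48.3, 47.9 and 50.6 CPM in the libraries labelled guide 1. It was lowest in the libraries labelled guide 1, where it fell 1.6-fold (log2 fold change −0.68 ± 0.052, edgeR adjusted p = 3.55e-12), and the guide 2 libraries were above shScramble by less than the required fold change (log2 fold change 0.20 ± 0.051, edgeR adjusted p = 0.0014).

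IRF1 had 14.8, 17.4 and 14.6 CPM, 12.9, 11 and 16 CPM and 9.87, 9.83 and 11.4 CPM. It fell in the libraries labelled guide 1 (log2 fold change −0.59 ± 0.11, edgeR adjusted p = 5.79e-05), a call that was lost without shScramble library 2 (−0.51), guide 1 library 1 (−0.55) or guide 1 library 2 (−0.56) and with DESeq2 (−0.57) or its size factors (−0.58), and did not pass the test with guide 2 (log2 fold change −0.24 ± 0.11, edgeR adjusted p = 0.0673). STAT2 had 47.9 to 51.3 CPM with guide 2 and 36.8 to 37.9 CPM in the libraries labelled guide 1 against 49.8 to 56.2 CPM with shScramble, and was called in neither comparison.

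IRF9 was low, at 1.2, 0.911 and 1.18 CPM with shScramble, 0.78, 0.558 and 0.499 CPM with guide 2 and 1.05, 1.15 and 0.669 CPM in the libraries labelled guide 1. All guide 2 libraries were below all shScramble libraries. It fell with guide 2 (log2 fold change −0.83 ± 0.33, edgeR adjusted p = 0.0296), a call that was lost without shScramble library 1 (−0.75), shScramble library 3 (−0.78), guide 2 library 2 (−0.76) or guide 2 library 3 (−0.70), with DESeq2 (−0.81, adjusted p = 0.0903) and without the filter on low counts (−0.81, edgeR adjusted p = 0.0604). In the annotation, 48.4% of its exon bases are shared with another gene on the same strand, so its counts are uncertain. That other gene had 24, 20 and 24 counts with shScramble and 7, 18 and 12 with guide 2. In the libraries labelled guide 1 it had 19, 26 and 22. The part of the shared bases in the fall of IRF9 was not tested.

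Of the remaining effectors, ISG20 is an exonuclease that degrades RNA. ISG20 had 16.8, 19.4 and 18.6 CPM with shScramble, 10.6, 9.21 and 10.1 CPM with guide 2 and 9.16, 9.07 and 10.4 CPM in the libraries labelled guide 1. All shScramble libraries were above the 6 others, which overlapped. It fell 1.83-fold with guide 2 (log2 fold change −0.87 ± 0.094, edgeR adjusted p = 6.57e-09) and 1.91-fold in the libraries labelled guide 1 (log2 fold change −0.93 ± 0.092, edgeR adjusted p = 6.11e-10), and the direct comparison of the guide groups gave log2 fold change 0.06 ± 0.10, edgeR adjusted p = 0.59.

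SAMD9, which restricts poxviruses and cell growth, had 0.356, 0.502 and 0.92 CPM with shScramble, 1.73, 1.71 and 1.54 CPM with guide 2 and 0.597, 0.468 and 0.301 CPM in the libraries labelled guide 1. It rose with guide 2 (log2 fold change 1.54 ± 0.33, edgeR adjusted p = 0.000222), where every library was above all 6 others. CMPK2, a mitochondrial nucleotide kinase, had 2.75, 2.79 and 2.58 CPM, 3.81, 4.07 and 4.17 CPM and 1.19, 1.44 and 1.07 CPM. It fell 2.2-fold in the libraries labelled guide 1 (log2 fold change −1.14 ± 0.19, edgeR adjusted p = 7.77e-06), and the guide 2 value of log2 fold change 0.56 ± 0.17, edgeR adjusted p = 0.00485 was under the required fold change. EPSTI1 had 0.162, 0.157 and 0.0876 CPM, 0.173, 0.199 and 0.0453 CPM and 0.421, 0.36 and 0.87 CPM. It rose in the libraries labelled guide 1 (log2 fold change 1.95 ± 0.53, edgeR adjusted p = 0.00203), the third of which was highest, and the guide 2 minus guide 1 difference (−1.93) did not pass the test without that library (−1.43, edgeR adjusted p = 0.0533). TRIM22, a ubiquitin ligase, was at 0.144 to 0.582 CPM and was called in neither comparison.

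The genes that receive and transmit the interferon signal were examined next, in a list of 15 receptor and JAK-STAT genes, all of which were tested. With guide 2, 0 of them rose and 3 fell (JAK1, JAK2 and IFNLR1), whereas 2 rose (JAK1 and IFNLR1) and 3 fell (JAK2, STAT3 and PTPN6) in the libraries labelled guide 1. Over all genes tested, 8.85% rose and 20.4% fell in the first comparison and 21.2% and 16.5% in the second, so the share of the list that fell with guide 2 was close to that of all genes. JAK1, the kinase shared by the receptors of all interferon types, had 27.4, 30.1 and 27.9 CPM with shScramble, 10.5, 10.4 and 11.7 CPM with guide 2 and 67.8, 67.3 and 66.1 CPM in the libraries labelled guide 1. It fell 2.62-fold with guide 2 (log2 fold change −1.39 ± 0.072, edgeR adjusted p = 2.64e-15) and rose 2.35-fold in the libraries labelled guide 1 (log2 fold change 1.23 ± 0.059, edgeR adjusted p = 1.21e-16). Its order of groups was the reverse of that of OAS1, IFITM3, IFI6, ISG15 and BST2. It was the same as that of HERC5 and, by the group means alone, of IFI27 and IFIT5.

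JAK2, which serves the interferon gamma receptor, fell in both comparisons, from 26.9, 26.4 and 25.6 CPM to 18.5, 17.1 and 15.9 CPM with guide 2 (log2 fold change −0.61 ± 0.077, edgeR adjusted p = 1.05e-07) and 13.4, 13 and 14.8 CPM in the libraries labelled guide 1 (log2 fold change −0.94 ± 0.077, edgeR adjusted p = 1.65e-11). IFNLR1, the receptor chain for interferon lambda, had 0.55, 0.659 and 0.394 CPM with shScramble and 7.83, 8.6 and 7.49 CPM in the libraries labelled guide 1, a rise of 14.4-fold (log2 fold change 3.85 ± 0.20, edgeR adjusted p = 7.12e-16). With guide 2 it fell to 0.39, 0.239 and 0.272 CPM (log2 fold change −0.86 ± 0.37, edgeR adjusted p = 0.0439).

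STAT3 had 154, 154 and 148 CPM with shScramble, 234, 220.0 and 219 CPM with guide 2 and 98.6, 103 and 101 CPM in the libraries labelled guide 1. These groups did not overlap. The guide 2 value (log2 fold change 0.56 ± 0.044, edgeR adjusted p = 1.53e-11) did not reach the required fold change, and STAT3 fell in the libraries labelled guide 1 (log2 fold change −0.59 ± 0.045, edgeR adjusted p = 3.22e-12). IFNAR1, IFNAR2, IFNGR1, IFNGR2 and TYK2 were called in neither comparison, with log2 fold changes of −0.07 to 0.32 with guide 2 and −0.14 to 0.45 in the libraries labelled guide 1.

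**Figure D4:**
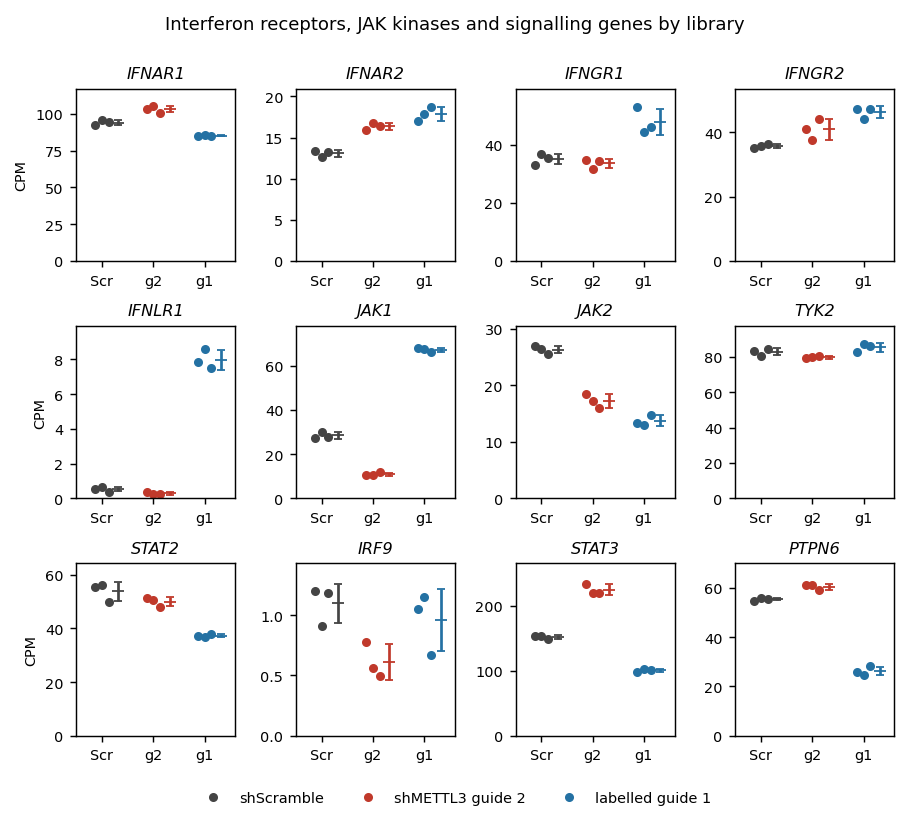
CPM of 12 interferon receptor, JAK and signalling genes in each of the 9 libraries (points), with the mean and SD of 3 libraries beside them, for shScramble (Scr), shMETTL3 guide 2 (g2) and the libraries labelled guide 1 (g1), each gene on its own axis from 0. JAK1 is lowest with guide 2 and highest in the libraries labelled guide 1, and STAT3 has the reverse order.

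Of a list of 26 nucleic acid sensors and adaptors, 19 were tested. With guide 2, 9 rose (47.4%) and 0 fell, beside 8.85% and 20.4% of all genes tested, whereas 4 rose and 5 fell in the libraries labelled guide 1, beside 21.2% and 16.5%. TLR3, an endosomal receptor for double-stranded RNA, had 3.95, 4.43 and 4.91 CPM, 8.67, 7.89 and 8.02 CPM and 2.14, 1.87 and 2.07 CPM in the shScramble, guide 2 and guide 1 groups. It rose with guide 2 (log2 fold change 0.90 ± 0.13, edgeR adjusted p = 1.11e-06) and fell in the libraries labelled guide 1 (log2 fold change −1.11 ± 0.15, edgeR adjusted p = 2.93e-07). MYD88, the adaptor of most Toll-like receptors, was ordered likewise (log2 fold change 0.83 ± 0.08, edgeR adjusted p = 8.95e-10 and log2 fold change −0.75 ± 0.088, edgeR adjusted p = 1.66e-08).

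STING1, the adaptor of cytosolic DNA sensing, rose in both comparisons (log2 fold change 1.06 ± 0.15, edgeR adjusted p = 8.28e-07 with guide 2 and log2 fold change 0.77 ± 0.15, edgeR adjusted p = 5.39e-05 in the libraries labelled guide 1), from 3.72, 3.27 and 3.33 CPM to 8.45, 6.06 and 7.12 CPM and 5.37, 5.26 and 7.03 CPM. TRAF3 and RNASEH2A also rose in both, and IKBKE, TRIM25, SAMHD1 and RNASEH2C rose with guide 2 and were not called in the other comparison. RIGI, the sensor of short double-stranded RNA, and MAVS, the adaptor it shares with IFIH1, were called in neither comparison.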

How the data were processed

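Total RNA of LNCaP:C4-2 cells was sequenced with paired ends in 9 libraries. Per the labels and the methods of the study, the authors removed adapters with Trim Galore and cutadapt, used STAR for alignment to GRCh38 and featureCounts for gene counting. They deposited the raw, unnormalised count of every gene, 1 file per library, with exon coordinates and lengths. Strand and multi-mapping settings were not given in the sources used here, so reads of overlapping, antisense or near-identical genes can fall to either. Groups and replicate numbers were taken from the sample titles.

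From these counts, symbols were assigned by Ensembl identifier from a later GENCODE annotation of the same build. Genes with low counts were removed with filterByExpr of edgeR 4.0.16 (minimum count 10, minimum total 15), libraries were scaled by TMM, and all 9 libraries were fitted in one robust quasi-likelihood model with a coefficient for each group (R 4.3.3). CPM are on the TMM scale, and RPKM are CPM per kilobase of the deposited gene length. Calls were made at 0.05 on the p-value, adjusted by the Benjamini-Hochberg method, and a 1.5-fold change. The procedure was tested on simulated counts. Promoter windows were read from RefSeq (GRCh38.p14) and searched on both strands.

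The 39 genes, the lists of related genes and the markers were chosen with earlier results of these data known. Some genes of those lists are not reported here and do not enter their counts or sums. Per-library values are printed for the genes called in at least 1 comparison with shScramble, and the others are given by range. Alternatives were DESeq2 1.42.0 (the tool of the study), scaling by library size alone, edgeR with the DESeq2 size factors, omission of the filter, a mean of at least 1 CPM, only the 6 libraries compared, a replicate block, the adjusted p-value alone, and each library left out in turn.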

Additional observations from a re-analysis of the deposited data

Results flagged for a closer look

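The effects of guide 2 and of the libraries labelled guide 1 against the same shScramble libraries differed for 22 of the 32 tested interferon-stimulated genes. The direct test of the guide 2 against the guide 1 libraries was edgeR's quasi-likelihood F test, adjusted by the Benjamini-Hochberg method. A change of 1.5-fold or more was also required. STAT2, USP18 and IRF1 passed the adjusted p-value but not the required fold change. Over all genes tested, 47.3% passed both in either direction. In 17 of the 22 genes guide 2 was higher. The log2 difference was 3.90 for OAS1, 1.89 for OAS3 and 1.17 for MX1. In the IFIT and IFITM families it was 1.19 for IFIT2, 0.89 for IFIT3, 0.96 for IFITM1, 1.51 for IFITM2 and 1.65 for IFITM3. It was 1.33 for IFI6, 1.01 for IFI35 and 1.59 for IFI44, and 1.35 for ISG15, 1.70 for IFIH1, 0.88 for IRF7, 1.55 for BST2, 1.87 for SAMD9 and 1.70 for CMPK2. In 5 genes guide 2 was lower, with a log2 difference of −3.68 for HERC5, −1.96 for IFI27, −1.93 for EPSTI1, −1.47 for IFIT5 and −0.97 for EIF2AK2.

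The IFIT3 difference did not pass without guide 2 library 2 (0.73) or without guide 1 library 1 (0.63), nor did that of EPSTI1 without guide 1 library 3 (−1.43). EPSTI1 passed the filter on low counts through the group where it was higher, and IFI44 in part did so too. Their differences were to that extent a condition of their being tested. Each group held 3 libraries, so no search for outlying libraries was made.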

How the results depend on the processing

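With guide 2, 7 of the 9 genes that rose (IFIT1, IFITM1, IFITM2, IFITM3, OAS1, OAS3 and SAMD9) and 2 of the 5 that fell (ISG20 and HERC5) were called under every alternative that could test them. So were 4 of 6 and 12 of 15 in the libraries labelled guide 1 and 16 of 17 and 4 of 5 between the guide groups. The 4 of 6 include EPSTI1 and the 16 of 17 include IFI44, whose being tested rested wholly or partly on the group where they were higher. There EPSTI1 was tested under 12 alternatives and IFI44 under 11, against 13 for OAS1. The number lowered with guide 2 was 2 with DESeq2 and 3 without a filter, and lay between 2 and 4 on leaving out single libraries, lowest without guide 2 library 2. The number raised was 15 by the adjusted p-value alone. Raised genes made up 64.3% of the guide 2 calls in the main fit, where 1706 of the 5645 calls over all genes tested were raised. They made up 53.8% with library size alone, 84.6% with DESeq2 and 73.3% with DESeq2 size factors. By the adjusted p-value alone they made up 71.4%, and without a filter 78.6%. Figures over all genes are given for the main fit only, so counts and percentages under the alternatives have none beside them. The number lower with guide 2 than in the libraries labelled guide 1 was 3 at a mean of at least 1 CPM, where fewer genes were tested.

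Changes of sign touched values that were not called. With library size alone the guide 2 value was −0.11 for EIF2AK2, −0.0411 for ADAR and −0.12 for EPSTI1, and the guide 2 minus guide 1 value was −0.076 for ISG20, −0.0822 for DDX60 and −0.11 for ADAR. At a mean of at least 1 CPM they were −0.01085 for EIF2AK2 with guide 2 and −0.017 for ADAR between the guide groups. On leaving out single libraries, the value in the libraries labelled guide 1 ranged from −0.34 to 0.17 for IFIT3, −0.12 to 0.00089 for USP18, −0.027 to 0.15 for OAS3, −0.60 to 0.070 for SAMD9 and −0.35 to 0.018 for IRF9. With guide 2 it ranged from −0.12 to 0.043 for IFIT5 and −0.32 to 0.41 for EPSTI1, and between the guide groups from −0.11 to 0.21 for DDX60, −0.58 to 0.054 for TRIM22 and −0.025 to 0.082 for ADAR. The cause was not tested. Of 1218 values of single genes under the alternatives, 1123 kept direction and side of the threshold, 27 came to pass it, 43 no longer passed it and 25 changed sign.

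The replicate numbers did not pair the libraries: deviations from the group means correlated at −0.098 to 0.053 between same-numbered libraries and at −0.053 to 0.107 between others, and not every library correlated best with its own number. With the replicate number as a block, 9 genes rose and 5 fell with guide 2, 5 rose and 15 fell in the libraries labelled guide 1, and 17 were higher and 5 lower between the guide groups. The call of IFIT1 in the libraries labelled guide 1 was lost (0.70, edgeR adjusted p = 0.054). Depth limits the 7 genes that were not tested and the genes near 1 CPM or below.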

Other observations

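Beyond the 39 genes, 37 of a list of 50 other interferon-induced genes were tested. With guide 2, 7 rose and 5 fell, beside 8.85% and 20.4% of all genes tested. Those that rose were PARP12, TRIM14, GBP3, LGALS3BP, LAP3, APOL6 and APOBEC3B. GBP3 had 4, 7 and 8 counts with shScramble and 15, 25 and 24 with guide 2, and it passed the filter on low counts through the latter, so its rise was a condition of its being tested. APOBEC3B, a DNA cytidine deaminase, had a mean of 11.2, 28.9 and 4.02 CPM in the shScramble, guide 2 and guide 1 groups. It rose with guide 2 (log2 fold change 1.37 ± 0.09, edgeR adjusted p = 4.2e-13) and fell in the libraries labelled guide 1 (log2 fold change −1.48 ± 0.11, edgeR adjusted p = 2.83e-12). TRIM14, which aids signalling from the adaptor MAVS, rose from 70.5 to 144 CPM with guide 2 (log2 fold change 1.03 ± 0.055, edgeR adjusted p = 4.82e-15). LAMP3, a lysosomal membrane protein, fell from 21.5 to 3.3 CPM (log2 fold change −2.71 ± 0.10, edgeR adjusted p = 5.2e-18), and PLSCR1, NMI, IRF8 and DDX60L also fell.

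In the libraries labelled guide 1, 5 of the 37 genes rose and 12 fell, beside 21.2% and 16.5% of all genes tested. Of those that rose, APOBEC3F had 13, 7 and 1 counts with shScramble and 55, 67 and 68 in the libraries labelled guide 1, and it passed the filter only through the latter, so this rise too was a condition of its being tested. PLSCR1, a phospholipid scramblase, rose from 3.73 to 16.8 CPM (log2 fold change 2.16 ± 0.12, edgeR adjusted p = 3.28e-15), and IRF8, a transcription factor of blood cells, from 1.09 to 5.62 CPM (log2 fold change 2.39 ± 0.21, edgeR adjusted p = 4.92e-11). Both had fallen with guide 2, PLSCR1 to 2.33 CPM and IRF8 to 1, 4 and 1 counts, at or near the detection limit of 3 counts. The median log2 fold change of the list was 0.21 with guide 2 and −0.37 in the libraries labelled guide 1, beside −0.04 and −0.02 over all genes tested.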
